A study of Mus musculus with 15 samples.

Results

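The 55 genes described here act in the G2 phase and in mitosis, and were taken as a fixed list of gene symbols from the deposited gene table. All 55 were among its 35533 symbols, and all 55 passed the filter on low counts that left 13358 genes for testing. They were grouped by role into cyclins and CDK1 with its partners (7 genes), the spindle checkpoint and the anaphase-promoting complex (8), mitotic kinases and the spindle (12), the chromosomal passenger complex (4), kinesins (6), the kinetochore and centromere (6), cytokinesis (4), mitotic chromosomes (6) and other genes (2).

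RNA-seq was performed on hematopoietic stem cells (HSCs), sorted from mouse bone marrow by the surface phenotype Lin- Sca1+ c-Kit+ with CD150 present and CD48 absent, to learn how low expression or loss of the transcriptional repressor GFI1 alters gene expression. There were 15 libraries, 3 for each of 5 homozygous genotypes, and all came from untreated mice. Gfi1-WT mice carried the murine gene, and GFI1-KI mice (also labelled 36S) carried human GFI1 in its place at the murine locus. GFI1-KD mice expressed human GFI1 at a reduced level, Gfi1-KO mice had lost Gfi1, and GFI1-36N mice carried a variant of human GFI1. The alleles are germline and present in every cell, and the age of the mice behind these libraries was not given in the sources used here. The labels do not say whether the libraries of a genotype came from separate mice, so that the p-values below measure only the spread between these libraries.

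Entry into mitosis is driven by CDK1 bound to cyclin B, and the kinases PLK1, Aurora A and Aurora B then act on the spindle and the chromosomes. The spindle checkpoint holds the anaphase-promoting complex in check until kinetochores are attached to microtubules, after which CDC20 directs the destruction of cyclin B and chromosomes separate. Most genes of this set are transcribed in G2 and mitosis through promoters that carry a cell cycle homology region and CCAAT boxes, and HSCs are known for spending most of their time outside the cell cycle.

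The promoters of the members on which the results turn are given first, because members that move together are known to share these elements. RefSeq promoters on GRCm38.p6, 250 bases before to 50 after each start, were found for 46 of the 55 genes (51 starts). The letters TTTGAA, the core of the cell cycle homology region, stood on either strand in 36 of the 51 (70.6%), against 17.9% of all 32851 promoters of the same length. The letters CCAAT stood in 42 (82.4%), against 37.4% of all promoters, and at least 2 such boxes in 30 (58.8%), against 11.7%. Both motifs occurred in 32 of the 51 (62.7%), against 6.95% of all. The 5 genes with 2 starts count more than once, as their windows can overlap. In the windows shown, from 130 bases before to 20 after the start on the gene's own strand, capitals mark TTTGAA and CCAAT or their reverse complements TTCAAA and ATTGG. Cdca8, Ube2c, Mki67 and Top2a are shown because they had an unadjusted p under 0.05 in at least 1 comparison below, Ccnb2 as a cyclin B gene with 3 CCAAT boxes, and Jpt1 as the steadiest member, whose window holds no TTTGAA. The RefSeq start used for Cdca8 lies inside the gene as annotated by GENCODE, which begins upstream at chr4:124939311 on the minus strand.
Cdca8, chr4:124936898-124937047, minus strand: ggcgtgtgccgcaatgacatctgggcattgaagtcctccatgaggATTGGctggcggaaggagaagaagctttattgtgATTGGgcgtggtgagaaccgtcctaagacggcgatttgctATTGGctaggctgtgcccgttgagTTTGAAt
Ube2c, chr2:164769799-164769948, plus strand: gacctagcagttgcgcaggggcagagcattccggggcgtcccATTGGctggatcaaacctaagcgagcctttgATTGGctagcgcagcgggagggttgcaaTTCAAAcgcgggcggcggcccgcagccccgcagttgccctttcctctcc
Mki67, chr7:135716360-135716509, minus strand: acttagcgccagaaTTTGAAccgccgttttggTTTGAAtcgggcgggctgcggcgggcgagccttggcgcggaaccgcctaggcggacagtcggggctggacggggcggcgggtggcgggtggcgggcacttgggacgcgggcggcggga
Top2a, chr11:99024170-99024319, minus strand: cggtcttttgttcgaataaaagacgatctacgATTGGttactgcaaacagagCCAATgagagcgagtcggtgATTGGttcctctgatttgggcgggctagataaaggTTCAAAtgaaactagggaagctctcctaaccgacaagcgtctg
Ccnb2, chr9:70421535-70421684, minus strand: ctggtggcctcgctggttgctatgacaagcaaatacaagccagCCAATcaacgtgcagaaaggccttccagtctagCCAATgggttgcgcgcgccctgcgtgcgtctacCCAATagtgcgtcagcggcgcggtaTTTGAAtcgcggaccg
Jpt1, chr11:115514374-115514523, minus strand: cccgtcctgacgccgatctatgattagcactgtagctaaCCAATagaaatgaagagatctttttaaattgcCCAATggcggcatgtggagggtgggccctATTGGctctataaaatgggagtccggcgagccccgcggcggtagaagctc
A match is a description of letters and not a site that was shown to be bound.

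Estimated counts per library ranged from 16221642 to 20641056 (median 18031667), and between 9415 and 15125 genes were above 0. Levels are given as counts-per-million (CPM) values, with library totals scaled by the trimmed mean of M values (TMM). The targeted gene went against the labels where it could be read: murine Gfi1 was at 0.285, 0 and 0 CPM in the libraries labelled Gfi1-WT and at 6.22, 3.31 and 0 CPM in those labelled Gfi1-KO. It was at 0, 6.02 and 1.67 CPM in GFI1-KI, at 0, 0 and 13.8 CPM in GFI1-KD and at 22.7, 3.71 and 0 CPM in GFI1-36N, in which human GFI1 is to stand in place of the murine gene. No genotype was set apart by its level of murine Gfi1. Columns were matched to labels only by their number, and every genotype below is the label of a library. GFI1-36N replicate 3 stood apart, with the 9415 genes and a median Spearman correlation of 0.557 with the other libraries, followed by GFI1-KD replicate 1 with 0.682, against 0.71 to 0.811 for the rest. In Gfi1-KO replicate 2, summed HSC markers were at 1324 CPM (2006 to 3949 in the other libraries), granulocyte and monocyte markers at 3584 CPM (106 to 1481 in the others) and multipotent progenitor markers at 2279 CPM (49.9 to 436), with Cd48, which the sort selects against, at 502 CPM (0 to 46.1). Mast cell and basophil markers were at 1753 CPM there (0 to 353), erythroid markers at 1463 CPM (80.5 to 601) and lymphoid markers at 2492 CPM (1265 to 2008). Slamf1, the gene of CD150, which the sort selects for, was at 1.29 CPM in that library (9.58 to 412). GFI1-KI replicate 2 held 1481 CPM of granulocyte and monocyte markers. Megakaryocyte markers summed to 2676 CPM in Gfi1-KO replicate 3 (53.2 to 1479 in the other libraries), most of it Pf4 (2068 CPM). In bulk libraries, fewer cells of a type and less RNA per cell cannot be told apart.

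The summed level of the 55 genes was highest in the libraries labelled Gfi1-KO and GFI1-KI and lowest in those labelled GFI1-36N and GFI1-KD. The sum was 9481, 8172 and 12171 CPM in the Gfi1-KO libraries and 8218, 10569 and 10325 CPM in the GFI1-KI libraries. It was 7452, 7280 and 7600 CPM in the Gfi1-WT libraries, 7279, 7655 and 5506 CPM in the GFI1-KD libraries and 6060, 6832 and 6311 CPM in the GFI1-36N libraries. All GFI1-KI and all Gfi1-KO libraries thus lay above every library of the remaining genotypes, whereas Gfi1-WT and GFI1-KD overlapped and each GFI1-36N library lay below each Gfi1-WT library. As means this was 9941 ± 2039 CPM for Gfi1-KO, 9704 ± 1293 for GFI1-KI, 7444 ± 160 for Gfi1-WT, 6814 ± 1148 for GFI1-KD and 6401 ± 394 for GFI1-36N (SD, n = 3 each). Neighbours in this order (Gfi1-KO and GFI1-KI, Gfi1-WT and GFI1-KD, GFI1-KD and GFI1-36N) did not differ beyond their spread. Gene by gene, the highest mean was in Gfi1-KO for 23 members and in GFI1-KI for 22, and the lowest in GFI1-36N for 30, in GFI1-KD for 12 and in Gfi1-WT for 11.

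**Figure D1:**
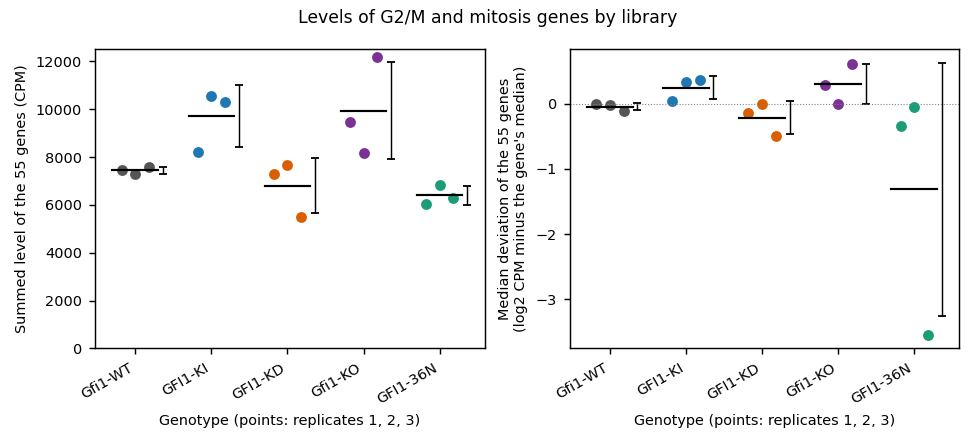
Left, summed CPM of the 55 genes in each library; right, the median over the 55 genes of log2 CPM minus the gene's median over 15 libraries. Points are libraries, lines means and bars SD (n = 3); the summed level lies between 8172 and 12171 CPM in Gfi1-KO and GFI1-KI libraries and between 5506 and 7655 CPM in the others, and the median of GFI1-36N replicate 3 lies at -3.54.

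GFI1-36N replicate 3 decided much of the spread. In it, 23 of the 55 members were under 1 CPM (41.8%), beside 53.5% of all genes tested and 39.9% of the genes in the members' range of mean CPM, and it held the lowest of 15 values for 30 members. It also held the highest gene value for 5 members: Aurka (234 CPM), Plk1 (273 CPM), Mad2l1 (431 CPM), Bub3 (737 CPM) and Cenpf (297 CPM). As a transcript sum, however, Cenpf was at 164 CPM there, below 200 CPM in Gfi1-KO replicate 1. GFI1-KD replicate 1 had 8 members under 1 CPM (14.5%), Gfi1-WT replicate 3 had 5 (9.09%), and the other libraries 0 to 3. The sum of the members in GFI1-36N replicate 3 was nevertheless within the range of its genotype.

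**Figure D2:**
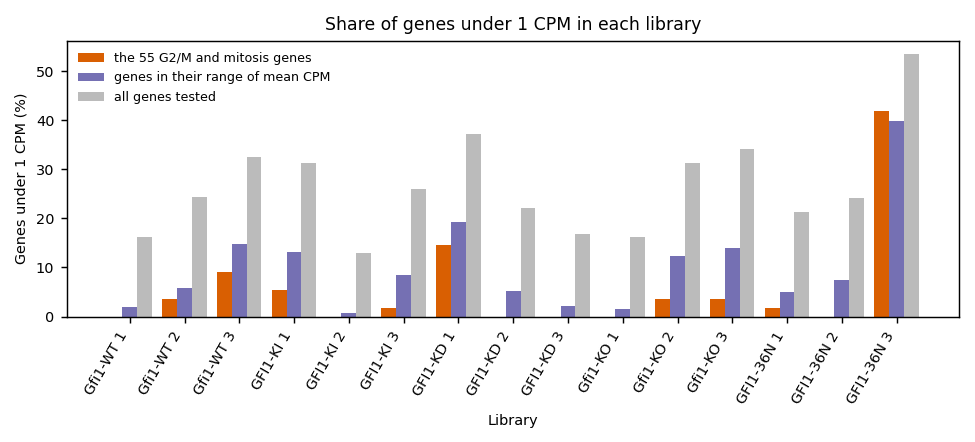
Bars show the share of genes under 1 CPM in each library for the 55 members, for the 8160 genes in the same range of mean CPM and for all 13358 genes tested. GFI1-36N replicate 3 reaches 41.8% of members, followed by GFI1-KD replicate 1 with 14.5%.

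The members were steadier between libraries of a genotype than other genes of their range. Their median within-genotype SD was 1.22 on the log2 scale, beside 2.07 for the 8160 genes of the same range of mean CPM and 2.12 for all genes. Levels within that range (10.6 to 580 CPM) were not matched between the sets, and their part in the gap was not tested. Jpt1 (SD 0.21), Hmgb2 (0.29), Cdca8 (0.29) and Bub3 (0.30) were the steadiest, and Ect2 (4.76), Ttk (4.49), Gtse1 (3.96), Kif23 (3.90) and Tacc3 (3.88) the most variable. Over the 15 libraries the mean correlation of a pair of members was 0.19, beside 0.12 for the other 114 G2/M pathway genes, 0.05 for 40 S phase genes and 0.06 for all genes, values that describe libraries which share depth and sparsity. Nusap1, Prc1, Ccnb1 and Hmmr followed the median of the other members most closely (r = 0.97 each, 15 libraries). Aurka (r = -0.46), Bub3 (-0.42) and Mad2l1 (-0.37) followed it least, and had their highest value in GFI1-36N replicate 3. In that library the members' median log2 deviation was -3.54, against -0.50 to 0.61 in the other libraries. Nusap1, Prc1, Ccnb1 and Hmmr lay at -10.7, -9.18, -11.02 and -6.52 there, so this library weighs heavily in their r. Their r without it was not tested.

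**Figure D3:**
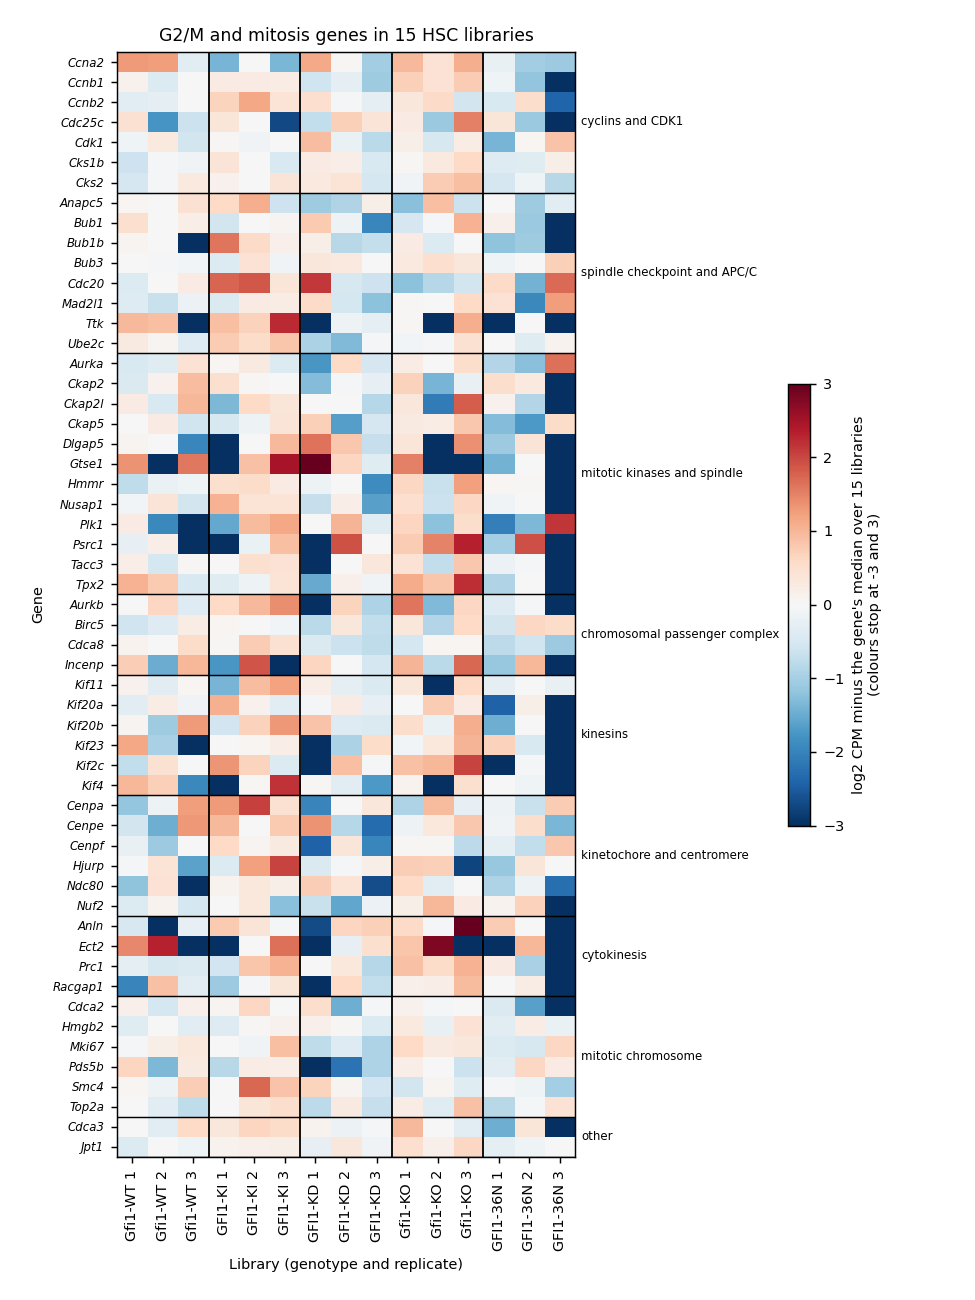
Each row is a member and each column a library, and colour gives log2 CPM minus the gene's median over 15 libraries, cut at -3 and 3. The dark blue column of GFI1-36N replicate 3 holds 23 members under 1 CPM, and the paler rows of Jpt1, Hmgb2, Cdca8 and Bub3 are the steadiest.

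The first comparison asked how a reduced level of GFI1 compares with the human knock-in control. In the libraries labelled GFI1-KD, 46 of the 55 members had a lower fitted level than in those labelled GFI1-KI (49.9% of all genes did), with a median log2 fold change of -0.52 (0 over all genes). All 6 kinesins, all 6 kinetochore genes, all 4 passenger genes, all 4 cytokinesis genes and all 6 mitotic chromosome genes were below 0, with medians of -0.73, -0.83, -0.69, -0.52 and -0.76. Without GFI1-KD replicate 1, 8 members changed sign, among them Anln and Racgap1, and the cytokinesis genes were 2 below and 2 above 0 with a median of -0.04, while the kinesin, kinetochore, passenger and mitotic chromosome genes were all still below 0. Leaving out any of the other 5 libraries of this comparison put at most 1 gene of each of these classes above 0, and the class medians stayed negative, the nearest to 0 being -0.20 for the cytokinesis genes without GFI1-KI replicate 3. The cyclins and CDK1 partners did not follow with all libraries, with 3 below and 4 above 0 and a median of 0.01. For 11 members the highest GFI1-KD value was under the lowest GFI1-KI value (5.05% of all genes), and for 0 members above (4.04%). No member passed edgeR's quasi-likelihood test with Benjamini-Hochberg adjustment over all genes (0 members, and 0% of all genes), and 4 members had an unadjusted p under 0.05 (2.49% of all genes): Cdca8, Mki67, Ube2c and Pds5b. Limma-trend called 0 members, and DESeq2 called 2, Cdca8 and Ube2c. With Gfi1-WT as the control in place of GFI1-KI the median was -0.12, with 34 members lower and 21 higher.

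Loss of Gfi1 was set against the murine control in the second comparison. In the libraries labelled Gfi1-KO, 43 members had a higher and 12 a lower fitted level than in those labelled Gfi1-WT (51.5% of all genes were lower), and the median log2 fold change was 0.39 (-0.03 over all genes). The 4 cytokinesis genes were all above 0 (median 0.88, and 3 of 4 without Gfi1-KO replicate 2 or Gfi1-WT replicate 3), as were 6 of 7 cyclins and partners (0.57) and 10 of 12 kinase and spindle genes (0.45), and the mitotic chromosome genes had the smallest median next to the checkpoint genes, 0.16 and 0.09. The Gfi1-KO libraries lay above all Gfi1-WT libraries for 10 members (4.04% of all genes) and below for 1, Cdc20 (4.9%). EdgeR called 0 members (0% of all genes), as did limma-trend and DESeq2, and 1 member, Jpt1, had an unadjusted p under 0.05 (3.07% of all genes). Against GFI1-KI the median of Gfi1-KO was 0.027, with 26 members lower and 29 higher. Without Gfi1-KO replicate 2, the library rich in granulocyte, monocyte, multipotent progenitor, mast cell, erythroid and lymphoid markers, the median against Gfi1-WT was 0.54, with 46 members higher. Without Gfi1-KO replicate 3, which held the highest of 15 values for 18 members, it was 0.28, with 37 members higher, 18 lower and 10 changed in sign, and the passenger and kinesin medians were 0.03 and 0.06. Gfi1-KO replicate 3 was also the library with 2676 CPM of megakaryocyte markers, whose part in these values was not tested.

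Comparison of the GFI1-36N allele with GFI1-KI gave 45 members lower and 10 higher (53.2% of all genes were lower), with a median of -0.78 (-0.08 over all genes). All 6 kinesins (median -1.52) and all 4 cytokinesis genes (-0.81) were below 0, and 5 of 6 kinetochore genes (-0.92). GFI1-36N replicate 3 held class medians of -8.80 for the kinesins and -7.12 for the cytokinesis genes, as log2 deviations from the median of all libraries. Without it 5 of 6 kinesins (median -0.98) and 2 of 4 cytokinesis genes (-0.23) were below 0, and Kif23, Anln and Racgap1 were above. Leaving out GFI1-KI replicate 3 gave 5 of 6 kinesins (-0.86) and 2 of 4 cytokinesis genes (-0.38). The groups lay apart for 14 members in the lower direction (6.27% of all genes) and for 0 in the higher (3.3%). EdgeR called 0 members (0% of all genes), limma-trend 0 and DESeq2 1, Cdca8, and 3 members had an unadjusted p under 0.05 (4.6% of all genes): Cdca8, Smc4 and Cdca2. Limma-trend gave a median of -1.24, with 51 members lower and 12 at an unadjusted p under 0.05 (827 of 13358 genes tested, whose median was -0.22). Without GFI1-36N replicate 3 the median was -0.68, with 44 members lower and 11 of the 55 on the other side of 0 than before. The comparison shares the GFI1-KI libraries with that of GFI1-KD.

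Between the control genotypes, the GFI1-KI libraries had the higher fitted level for 47 members and the lower for 8 (49.8% of all genes were lower), with a median of 0.37 (0 over all genes). Every kinesin, kinetochore and passenger gene was above 0, with medians of 0.48, 0.78 and 0.20. Leaving out 1 library put at most 2 kinesins, 1 kinetochore gene and 1 passenger gene below 0, with class medians as low as 0.21 and 0.66 for the kinesin and kinetochore genes and 0.11 for the passenger genes. GFI1-KI libraries lay above all Gfi1-WT libraries for 11 members (4.46% of all genes) and below for 0 (4.18%). EdgeR, limma-trend and DESeq2 each called 0 members (edgeR 0% of all genes), and 0 had an unadjusted p under 0.05 (2.09%). This comparison shares libraries with each of those above.

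Whether reduced and lost GFI1 differed in their effect was tested by subtracting the log2 fold change of Gfi1-KO over Gfi1-WT from that of GFI1-KD over GFI1-KI. The result was negative for 50 members and positive for 5 (48.9% of all genes were negative), with a median of -0.88 (0.03 over all genes). Each effect was taken against its own control, so the gap between those controls is part of this result. For GFI1-KI minus Gfi1-WT that gap had a median of 0.37, with 47 members above 0. With the other control genotype the medians were -0.12 for GFI1-KD and 0.027 for Gfi1-KO. How much of the -0.88 comes from the controls was not tested. EdgeR called 0 members (0% of all genes), limma-trend 0 and DESeq2 0, and 3 had an unadjusted p under 0.05 (3% of all genes): Mki67 (-1.26 ± 0.50 SE), Jpt1 (-0.73 ± 0.30) and Top2a (-1.30 ± 0.56), each with an edgeR adjusted p of 0.9998. Ube2c (-1.51 ± 0.79) and Cdca8 (-0.70 ± 0.44) followed.

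**Figure D4:**
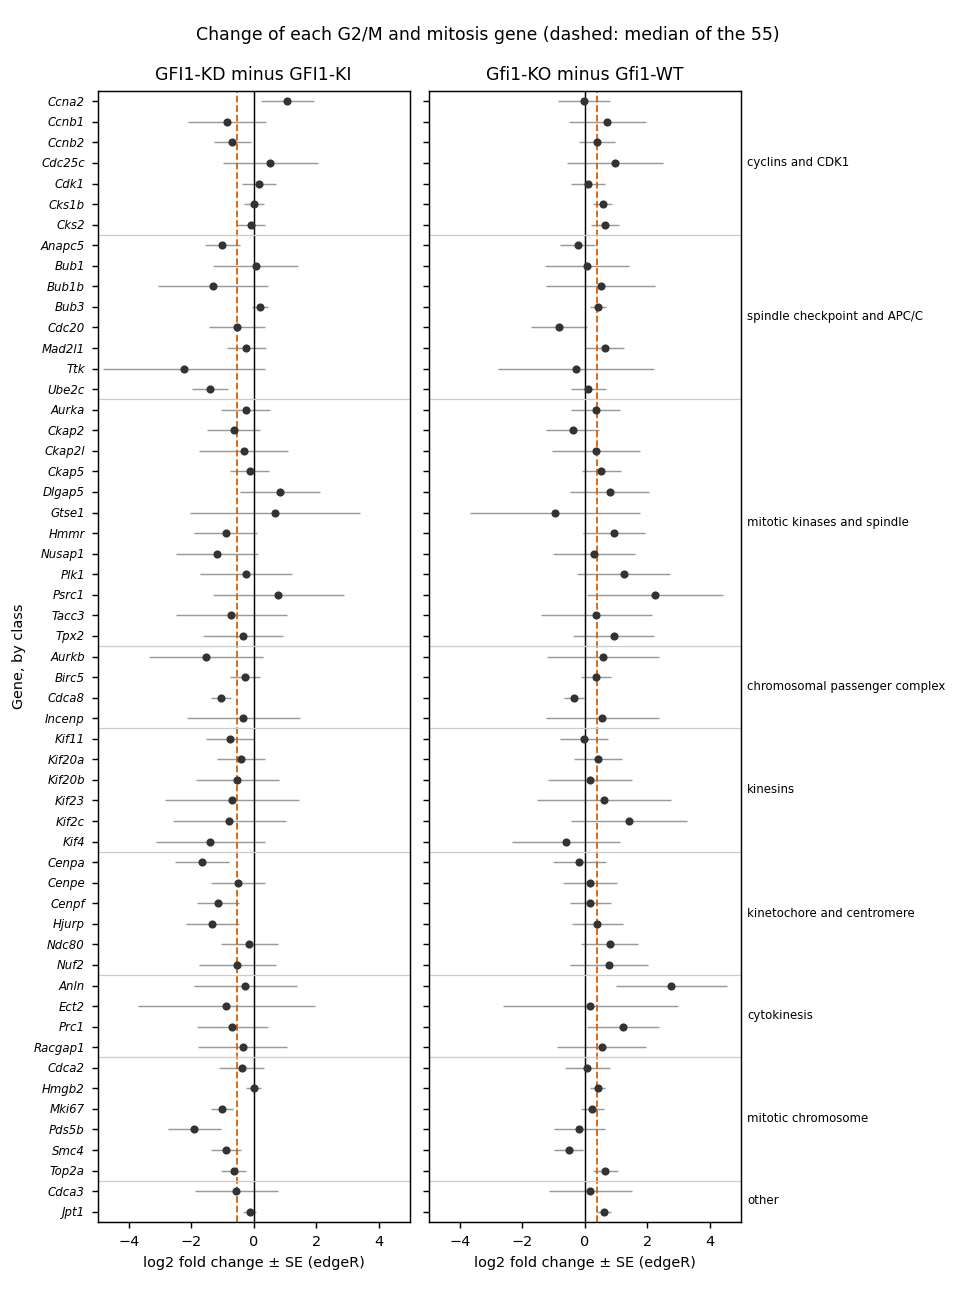
Points are edgeR log2 fold changes of the 55 members with their SE, left for GFI1-KD minus GFI1-KI and right for Gfi1-KO minus Gfi1-WT; the dashed lines mark the medians of -0.52 and 0.39. On the left 46 points lie below 0 and on the right 43 above it.

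Cdca8 was the member with the clearest difference. It encodes borealin, a subunit of the chromosomal passenger complex, and lies at chr4:124918465-124939311 on the minus strand. Its level was 202, 333 and 268 CPM in the GFI1-KI libraries and 211, 197 and 290 CPM in the Gfi1-WT libraries. In the GFI1-KD libraries it was 146, 125 and 117 CPM, in the GFI1-36N libraries 114, 131 and 92.7 CPM, and in the Gfi1-KO libraries 137, 204 and 204 CPM. Every GFI1-KD and GFI1-36N library thus lay below every GFI1-KI and Gfi1-WT library, and Gfi1-KO overlapped with Gfi1-WT. The log2 fold change was -1.05 ± 0.32 (SE, edgeR unadjusted p = 0.00552, adjusted p = 1) for GFI1-KD and -1.25 ± 0.32 (unadjusted p = 0.00172, adjusted p = 0.981) for GFI1-36N, both against GFI1-KI. DESeq2 gave -1.03 ± 0.27 with an adjusted p of 0.0103 and -1.22 ± 0.27 with an adjusted p of 4.03e-04. Against both control genotypes at once, GFI1-KD lay apart in the lower direction for 2 members, Cdca8 and Mki67 (0.913% of all genes), and GFI1-36N for 1, Cdca8 (1.75%). By gene values, Gfi1-KO lay above both for Ccnb1 alone (1.33%) and below both for Cdc20 alone (1.46%). Summed over transcripts, Ccnb1 in Gfi1-KO overlapped with GFI1-KI. These genes were looked up after their values were seen.

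The other passenger subunits were less steady. Aurkb, the kinase of the complex, was at 96.3, 125 and 167 CPM in the GFI1-KI libraries and at 0, 101 and 33.7 CPM in the GFI1-KD libraries. It was at 63.6, 98.6 and 49 CPM in Gfi1-WT and at 193, 25.3 and 98.4 CPM in Gfi1-KO, and both pairs of groups overlapped (log2 fold changes -1.53 ± 1.84 and 0.58 ± 1.80). Birc5, or survivin, which brings the complex to centromeres, was at 157, 151 and 143 CPM in GFI1-KI and at 86.4, 193 and 90.6 CPM in GFI1-KD (-0.29 ± 0.48). Its values of 104, 234 and 222 CPM in GFI1-36N lay on both sides of GFI1-KI, unlike those of Cdca8. Incenp, the scaffold, stayed under 30 CPM in every library (0 to 29.9 CPM).

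**Figure D5:**
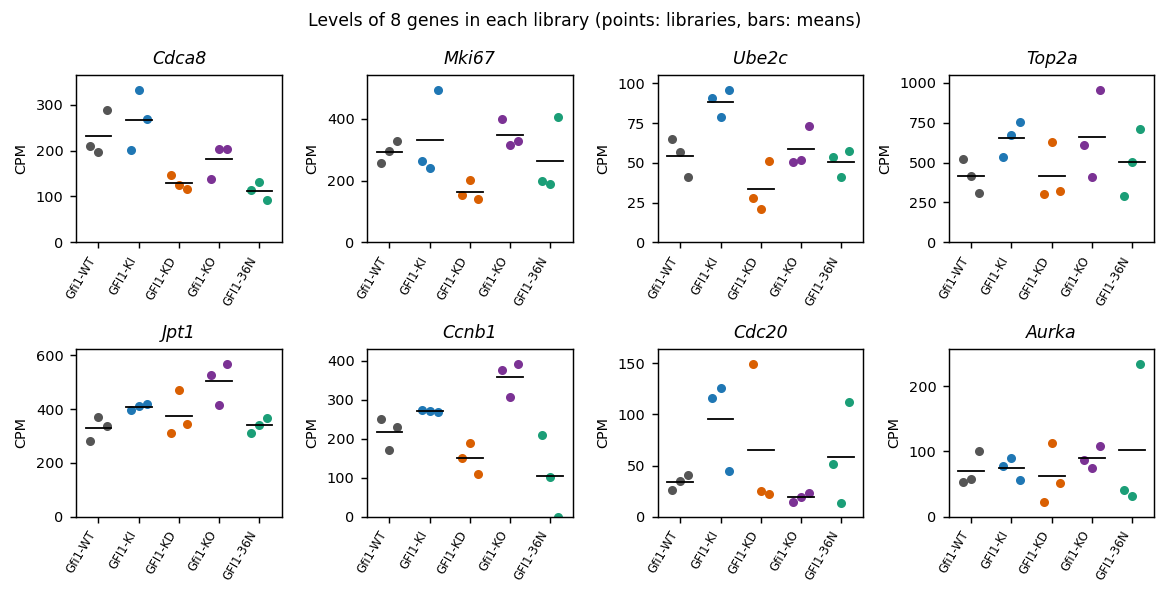
CPM of 8 members in each library, with points for libraries and horizontal lines for genotype means (n = 3), each axis starting at 0. Cdca8 lies between 92.7 and 146 CPM in GFI1-KD and GFI1-36N and between 197 and 333 CPM in GFI1-KI and Gfi1-WT; Aurka reaches 234 CPM in GFI1-36N replicate 3 only.

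Among the genes of mitotic chromosomes, Mki67 encodes Ki-67, a proliferation marker that coats mitotic chromosomes (chr7:135689784-135716361, minus strand). Its level was 155, 201 and 139 CPM in the GFI1-KD libraries, 263, 243 and 495 CPM in GFI1-KI and 258, 295 and 330 CPM in Gfi1-WT. It was 399, 317 and 330 CPM in Gfi1-KO and 198, 189 and 406 CPM in GFI1-36N. The GFI1-KD libraries lay below every GFI1-KI, Gfi1-WT and Gfi1-KO library (-1.02 ± 0.36 against GFI1-KI, edgeR unadjusted p = 0.0135, adjusted p = 1), and Gfi1-KO overlapped with Gfi1-WT (0.25 ± 0.35). The value of Gfi1-WT replicate 3 depended on the level of quantification: summed over transcripts Mki67 was at 150 CPM there, below GFI1-KD replicates 1 and 2 at 168 and 211 CPM, so that the groups then overlapped, whereas the separation from GFI1-KI remained (259 to 529 CPM).

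Top2a, the topoisomerase that untangles sister chromatids, was at 304, 628 and 322 CPM in the GFI1-KD libraries and at 533, 672 and 754 CPM in GFI1-KI (-0.64 ± 0.39). It was at 613, 409 and 957 CPM in Gfi1-KO and at 524, 417 and 311 CPM in Gfi1-WT (0.66 ± 0.39), so that the groups overlapped in both comparisons, while all GFI1-KI libraries exceeded all Gfi1-WT libraries. Summed over transcripts, Top2a was at 250.2, 508.6 and 253.7 CPM in GFI1-KD and at 631, 629 and 846 CPM in GFI1-KI, with no overlap (-1.06 ± 0.33, edgeR unadjusted p = 0.00718, adjusted p = 1). By the same sums it was at 705, 592 and 925 CPM in Gfi1-KO and at 491, 369 and 505 CPM in Gfi1-WT, again with no overlap (0.70 ± 0.33), and the difference of the effects was -1.76 ± 0.47 (edgeR unadjusted p = 0.00237). Hmgb2, a chromatin protein abundant in dividing cells, was at 658, 614 and 446 CPM in GFI1-KD and at 458, 613 and 652 CPM in GFI1-KI, with a fold change of -0.00 ± 0.24, and at 726, 508 and 804 CPM in Gfi1-KO against 466, 595 and 476 CPM in Gfi1-WT (0.41 ± 0.24).

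Smc4, a condensin subunit, was at 158, 148 and 79.4 CPM in GFI1-36N, below its 162, 530 and 291 CPM in GFI1-KI (-1.35 ± 0.48, edgeR unadjusted p = 0.015, adjusted p = 0.981). The gap between the groups was small (158 and 162 CPM), and GFI1-KI replicate 2 with 530 CPM stood far above the other libraries. The leading transcript of Smc4, Smc4-207, is annotated for nonsense-mediated decay and not as protein-coding. It made up 57.6% of the gene's transcript sum (0% to 94.1% by library). Cdca2, which recruits protein phosphatase 1 to chromatin, was at 66.7, 29.1 and 6.38 CPM in GFI1-36N and at 95.5, 140 and 90.9 CPM in GFI1-KI (-1.67 ± 0.74, edgeR unadjusted p = 0.0413, adjusted p = 0.981). Pds5b, a cohesin regulator, was at 2.89, 19.7 and 48.2 CPM in GFI1-KD and at 51, 107 and 106 CPM in GFI1-KI (-1.90 ± 0.84, edgeR unadjusted p = 0.0416, adjusted p = 1). Summed over transcripts, Pds5b was at 65.7 CPM in GFI1-KD replicate 3 and 56.6 CPM in GFI1-KI replicate 1, and the groups overlapped.

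In the spindle checkpoint and the anaphase-promoting complex, Ube2c, the ubiquitin-conjugating enzyme of that complex (chr2:164769898-164778822, plus strand), was among the members with an unadjusted p under 0.05. It was at 27.9, 21.2 and 51.4 CPM in GFI1-KD and at 90.8, 78.9 and 96 CPM in GFI1-KI (-1.40 ± 0.57, edgeR unadjusted p = 0.028, adjusted p = 1; DESeq2 -1.40 ± 0.36, adjusted p = 0.00773). The GFI1-KI libraries also lay above all libraries of Gfi1-WT (65, 57.1 and 40.9 CPM), Gfi1-KO (50.8, 51.8 and 73 CPM) and GFI1-36N (53.6, 41.4 and 57.2 CPM). GFI1-KD replicate 3 lay within the range of these other genotypes, and replicates 1 and 2 below it. Ttk, the checkpoint kinase MPS1, had a lower fold change (-2.24 ± 2.60) and also no overlap, at 0, 42.6 and 38.8 CPM in GFI1-KD and at 87.8, 76.3 and 221 CPM in GFI1-KI, but libraries of Gfi1-WT (91.9, 88.3 and 0 CPM), Gfi1-KO (48.5, 0.0612 and 99.4 CPM) and GFI1-36N (1.08, 47 and 0 CPM) also held values at or near 0.

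Cdc20, the activator that the checkpoint inhibits, was at 14.7, 18.9 and 23.4 CPM in Gfi1-KO and at 25.8, 34.4 and 40.9 CPM in Gfi1-WT (-0.83 ± 0.90), and at 116, 126 and 44.4 CPM in GFI1-KI (1.499 ± 0.92 against Gfi1-WT). In GFI1-KD, replicate 1 was at 149 CPM and replicates 2 and 3 at 24.6 and 22.3 CPM, and in GFI1-36N replicate 3 at 112 CPM stood above 51.1 and 12.9 CPM. Within GFI1-KD a single library stood far above the others. Bub1b, the checkpoint protein BubR1, was at 85, 42.3 and 45.4 CPM in GFI1-KD and at 230, 111 and 83.6 CPM in GFI1-KI (-1.30 ± 1.77), and at 0 in GFI1-36N replicate 3 and Gfi1-WT replicate 3. Mad2l1, which binds CDC20 when the checkpoint is active, was at 185, 181 and 276 CPM in Gfi1-KO and at 139, 113 and 160 CPM in Gfi1-WT, with no overlap (0.64 ± 0.63), and its 268, 126 and 76.7 CPM in GFI1-KD lay on both sides of its 135, 213 and 210 CPM in GFI1-KI. Bub3, a checkpoint protein, was at 550, 640 and 569 CPM in Gfi1-KO and at 452, 443 and 425 CPM in Gfi1-WT, again with no overlap (0.41 ± 0.26).

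The cyclins and the partners of CDK1 differed among themselves. Ccnb1, cyclin B1, was at 376, 308 and 392 CPM in the Gfi1-KO libraries, above 252, 172 and 230 CPM in Gfi1-WT and 273, 271 and 270 CPM in GFI1-KI. It was at 150, 190 and 109 CPM in GFI1-KD, below all GFI1-KI libraries, and at 210, 101.8 and 0 CPM in GFI1-36N. By gene values the groups did not overlap in any of these comparisons, yet the SE exceeded the fold change for GFI1-KD (-0.86 ± 1.24), Gfi1-KO (0.72 ± 1.24) and GFI1-KI (0.32 ± 1.23). Summed over transcripts, Ccnb1 was at 264 CPM in Gfi1-KO replicate 2, below the GFI1-KI libraries (282 to 336 CPM). By these sums Gfi1-KO overlapped with GFI1-KI but still lay above Gfi1-WT (184 to 239 CPM). All 15 libraries, with the 0 of GFI1-36N replicate 3, share 1 estimate of the spread. Ccnb2, cyclin B2, was at 198, 277 and 167 CPM in GFI1-KI and at 98.9, 103 and 125 CPM in Gfi1-WT with no overlap (0.97 ± 0.59), and at 176, 122 and 101 CPM in GFI1-KD (-0.68 ± 0.59). Its 90.3, 180 and 23.3 CPM in GFI1-36N overlapped with GFI1-KI (-1.12 ± 0.59).

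Ccna2, cyclin A2, had fold changes of the opposite sign. It was at 10.8, 28.5 and 11 CPM in GFI1-KI and at 69.2, 67.7 and 22.7 CPM in Gfi1-WT (-1.66 ± 0.86, the lowest p of a member in that comparison, edgeR unadjusted p = 0.0732, adjusted p = 1). In GFI1-KD it was at 63.2, 29.2 and 13.8 CPM (1.08 ± 0.84 against GFI1-KI), and the groups overlapped in both cases. Cdk1, the kinase that these cyclins activate, was at 279, 128 and 83.3 CPM in GFI1-KD and at 151, 137 and 147 CPM in GFI1-KI (0.17 ± 0.55), with fold changes of 0.07 to 0.12 in the other comparisons. Cks1b, a small CDK-binding protein, was at 307, 368 and 459 CPM in Gfi1-KO and at 196, 290 and 279 CPM in Gfi1-WT with no overlap (0.57 ± 0.31, edgeR unadjusted p = 0.0881, adjusted p = 1).

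Mitotic kinases and their partners varied widely between libraries of a genotype. Plk1, the polo-like kinase, ranged from 0.06 CPM in Gfi1-WT replicate 3 to 273 CPM in GFI1-36N replicate 3, with fold changes of -0.24 ± 1.47 for GFI1-KD, 1.24 ± 1.49 for Gfi1-KO and 0.16 ± 1.47 for GFI1-36N. The fold change of Plk1 for GFI1-36N became -2.24 without GFI1-36N replicate 3 and -0.29 without GFI1-KI replicate 1. Aurka, which builds spindle poles, was at 22, 112 and 52.3 CPM in GFI1-KD and at 77.7, 89.9 and 55.7 CPM in GFI1-KI (-0.26 ± 0.78), and at 87.4, 74.3 and 108 CPM in Gfi1-KO against 53.7, 58 and 100 CPM in Gfi1-WT (0.35 ± 0.78). Tpx2, the activator of Aurora A, was at 335, 273 and 710 CPM in Gfi1-KO and at 317, 266 and 111 CPM in Gfi1-WT (0.92 ± 1.29), and at 53.5, 171 and 143 CPM in GFI1-KD against 119, 139 and 205 CPM in GFI1-KI (-0.34 ± 1.28). The groups of Aurka and of Tpx2 overlapped in both comparisons. Hmmr, Nusap1 and Ckap2, which bind microtubules or the spindle, were the genes of this class in which GFI1-KD and GFI1-KI did not overlap by gene values, with fold changes of -0.90, -1.18 and -0.63. Summed over transcripts, Ckap2 was at 104 CPM in GFI1-KD replicate 2 and 83.4 CPM in GFI1-KI replicate 3, and its groups overlapped.

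Kinesins, the motors of the spindle and midbody, had fold changes below 0 in GFI1-KD and in GFI1-36N with all libraries in the fit. By gene values none lay apart from GFI1-KI. By transcript sums Kif20b was at 38.8, 109 and 0 CPM in GFI1-36N, below its 166, 198 and 266 CPM in GFI1-KI. Kif11, the motor that separates spindle poles, was at 222, 160 and 142 CPM in GFI1-KD and at 73, 366 and 446 CPM in GFI1-KI (-0.76 ± 0.76), and Gfi1-KO replicate 2 held 17 CPM beside 242 and 293 CPM. Kif20a, a cytokinesis motor, was at 20.6, 126 and 7.69 CPM in GFI1-36N and at 233, 121 and 87.7 CPM in GFI1-KI (-1.52 ± 0.78, edgeR unadjusted p = 0.0747). Its fold change by transcript sums was -1.76 ± 0.75 (edgeR unadjusted p = 0.0343, adjusted p = 0.958), and the groups still overlapped. Kif23, a motor of the central spindle, was at 0 CPM in GFI1-KD replicate 1 and GFI1-36N replicate 3 and at 0.06 CPM in Gfi1-WT replicate 3 (-0.70 ± 2.15 for GFI1-KD). In GFI1-36N, Kif23 at 78.3, 35.7 and 0 CPM spanned the 48.7, 51 and 56.3 CPM of GFI1-KI, and its fold change of -0.45 became 0.13 without replicate 3. Kif2c, which depolymerises microtubules, was the member of the class whose 103, 111 and 229 CPM in Gfi1-KO lay above all Gfi1-WT libraries (33.6, 76.8 and 55.9 CPM; 1.41 ± 1.84).

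Of the kinetochore genes, Cenpa, the centromeric histone, was at 10.6, 42.5 and 54.1 CPM in GFI1-KD, below its 103, 177 and 58.6 CPM in GFI1-KI (-1.66 ± 0.87, edgeR unadjusted p = 0.079, adjusted p = 1). The gap between 54.1 and 58.6 CPM was small, and the Gfi1-WT libraries spanned it with 18.8, 37.9 and 101.9 CPM. Hjurp, the chaperone of that histone, was at 71.1, 93.8 and 108 CPM in GFI1-KD and at 72, 222 and 389 CPM in GFI1-KI (-1.32 ± 0.84; GFI1-KI minus Gfi1-WT 1.45 ± 0.84), and Cenpf was at 31.6, 219 and 43.9 CPM against 258, 181 and 206 CPM (-1.13 ± 0.67). By gene values, the SE of the fold change of Cenpe, the kinetochore motor (-0.50 ± 0.86), and of Ndc80, which binds microtubules at the kinetochore (-0.14 ± 0.92), exceeded it. The value of Cenpe in GFI1-KD replicate 1 was 308 CPM by gene and 96.7 CPM as a transcript sum. By such sums Cenpe was at 96.7, 71.6 and 26 CPM in GFI1-KD and at 259, 121 and 204 CPM in GFI1-KI. These groups did not overlap (-1.59 ± 0.72, edgeR unadjusted p = 0.0447). Nuf2, the partner of NDC80, was at 131, 229 and 137 CPM in Gfi1-KO and at 87.2, 123 and 80 CPM in Gfi1-WT with no overlap (0.77 ± 1.25).

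Cytokinesis genes had the largest median in Gfi1-KO. Prc1, which bundles the microtubules of the central spindle, was at 317, 253 and 353 CPM in Gfi1-KO and at 142, 123 and 128 CPM in Gfi1-WT, with the groups far apart (1.23 ± 1.15). It was at 172, 215 and 94.9 CPM in GFI1-KD, at 115, 308 and 353 CPM in GFI1-KI (-0.69 ± 1.14) and at 205, 88 and 0.188 CPM in GFI1-36N. Anln, anillin of the contractile ring, was at 70.2, 46 and 377 CPM in Gfi1-KO and at 33.4, 0 and 39.2 CPM in Gfi1-WT (2.77 ± 1.77), a difference carried most by Gfi1-KO replicate 3. Racgap1, which with Kif23 forms the centralspindlin complex, was at 47.5, 49.1 and 81.7 CPM in Gfi1-KO against 10.6, 78.7 and 33.8 CPM in Gfi1-WT (0.53 ± 1.43), and Ect2 was at 0 in 4 libraries.

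Of the 2 other genes, Jpt1, a microtubule-associated protein gene (chr11:115497353-115514387, minus strand), was the steadiest member and the one with the lowest p for Gfi1-KO. It was at 526, 414 and 567 CPM in Gfi1-KO and at 281, 371 and 337 CPM in Gfi1-WT (0.61 ± 0.22, edgeR unadjusted p = 0.0144, adjusted p = 1). The GFI1-KI libraries with 397, 412 and 418 CPM also lay above Gfi1-WT (0.31 ± 0.22), and GFI1-36N with 310, 339 and 368 CPM lay below GFI1-KI. Cdca3, an adaptor for the destruction of the mitotic inhibitor WEE1, was at 58.7, 48.3 and 53.7 CPM in GFI1-KD and at 69.5, 85.4 and 80.7 CPM in GFI1-KI with no overlap (-0.55 ± 1.33).

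The gene values rest on 344 transcripts of the 55 genes, of which 305 were above 0 in at least 1 library. A single transcript led in every library with reads for 28 members and made up more than 90% of the gene's transcript sum for 21. Cdca8-202 led Cdca8 in 15 of 15 libraries with 82.7% of its sum, Ube2c-202 made up 99.8% of Ube2c and Mki67-201 99.8% of Mki67. Jpt1-201 held 95.5%, Cdk1-202 79.1% and Ccnb1-201 83.5%. By contrast Cdca2-204 led in 5 of 15 libraries, Mad2l1-201 and Pds5b-201 in 7 each, so that the levels of these genes were added up from different transcripts in different libraries. For Incenp and Dlgap5 the transcript sum was 1.34 and 1.27 times the gene value. With transcript sums in place of gene values, GFI1-KD lay below GFI1-KI for 12 members (5.11% of all genes), Gfi1-KO above Gfi1-WT for 12 (4.07%), GFI1-36N below GFI1-KI for 18 (6.37%) and GFI1-KI above Gfi1-WT for 8 (4.44%, with 11 members by gene values), and edgeR again called 0 members.

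Of the other 114 G2/M pathway genes tested, fixed as a list of regulators, subunits and substrates, 75 were lower and 39 higher in GFI1-KD against GFI1-KI (median -0.31), and 76 were higher and 38 lower in Gfi1-KO against Gfi1-WT (0.26). In GFI1-36N 69 were lower and 45 higher than in GFI1-KI (-0.33), and 0 passed edgeR's adjusted test in any comparison, with 2, 3 and 3 at an unadjusted p under 0.05. Spc24, a subunit of the NDC80 complex, was at 343, 371 and 402 CPM in GFI1-KD and at 494, 569 and 532 CPM in GFI1-KI (-0.52 ± 0.24), and Kif18b, a kinesin, had 0 counts in GFI1-KD and 0, 10.3 and 0.0538 CPM in GFI1-KI. Sgo2a, a protector of centromeric cohesion, and Ska2, a kinetochore subunit, were among the genes of the list with the lowest p in GFI1-KI against Gfi1-WT, and Kpna2 (-0.94 ± 0.32) and Kif18b among those for the difference of effects.

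Kpna2, an importin that carries spindle factors, was at 658, 702 and 1109 CPM in Gfi1-KO, above 546, 509 and 486 CPM in Gfi1-WT (0.68 ± 0.23). It was at 417, 477 and 308 CPM in GFI1-36N, below 644, 603 and 724 CPM in GFI1-KI (-0.71 ± 0.23). Lin37, a subunit of the DREAM complex (0.99 ± 0.45), and Arpp19, an inhibitor of protein phosphatase 2A once phosphorylated (0.47 ± 0.21), were the next in Gfi1-KO. In GFI1-36N, Ensa, a close relative of Arpp19, was at 140, 226 and 150 CPM, above 62.6, 106 and 60.4 CPM in GFI1-KI (1.17 ± 0.42), opposite in sign to most of the list, and Ncapd2, a condensin subunit, was lower (-1.88 ± 0.79). The 40 S phase genes had smaller medians than the members: -0.16, 0.06, -0.11 and 0.10 for GFI1-KD, Gfi1-KO, GFI1-36N and GFI1-KI, with 0 called.

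Genes outside the lists whose log2 CPM was most like the members' median over the 15 libraries were Lrmp (r = 0.99), Cdkn3, a phosphatase of CDKs (0.98), Dnaja2, a co-chaperone (0.98), Sorbs3 (0.98) and Agk (0.97), out of 13089 compared. All 5 were at or near 0 in GFI1-36N replicate 3 (0 to 0.25 CPM), and without it and GFI1-KD replicate 1 the r values were 0.87, 0.79, 0.78, 0.71 and 0.51. Over the same 13 libraries the median of the S phase genes correlated with that of the members at r = 0.66, against 0.17 over all 15, and the summed marker levels of other cell types at -0.09 to 0.37. In Gfi1-KO replicate 2, Kif11 (17 CPM), Birc5 (81.7 CPM) and Ckap2l (45.5 CPM) were the lowest of the 3 Gfi1-KO libraries and Anapc5, a subunit of the anaphase-promoting complex, the highest (616 CPM). This library held the 3584 CPM of granulocyte and monocyte markers and was also the highest in mast cell, erythroid and lymphoid markers. The part of these cells in the values was not tested.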

How the data were processed

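RNA was extracted from sorted HSCs of 15 libraries (3 for each of 5 genotypes) and sequenced after poly(A) selection. The deposited values are estimated counts per gene symbol, which the authors made with Salmon 1.9.0 (Ensembl 102 transcripts, GRCm38, k-mer 31, bias corrections on) and annotables 0.1.91 as length-scaled TPM. They are not whole and not normalized between libraries. Rows without a symbol (0.00679% to 0.0719% of counts) were left out, and 0 columns of values were left unmatched.

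After rounding, edgeR 4.0.16 in R 4.3.3 was applied to all 15 libraries in 1 fit. Genes passed filterByExpr (count at least 10, total at least 15), totals were scaled by TMM, and quasi-likelihood F tests with 10 residual degrees of freedom were adjusted by Benjamini-Hochberg over 13358 genes (threshold 0.05). The procedure was run on simulated data, with its pass conditions set only at a spread below that fitted here. Those conditions do not show what could be called at the spread of these data. The study itself used sleuth 0.30.0. The common biological coefficient of variation was 1.39. Log2 CPM used a prior count of 2. The SE is the log2 fold change divided by the square root of the F statistic. No test was made over the list, and comparisons that share control libraries are not independent.

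Members, lists and tests were chosen with earlier results of these data known. Named genes were 25 fixed members, in each comparison every member with an unadjusted p under 0.05 or the 5 with the lowest p, 3 other G2/M pathway genes, and 5 genes by likeness; further genes were chosen after their values were seen. A gene that this rule names is not reported here. Coordinates are from GENCODE M21 (GRCm38), and 115895 of 117135 transcripts (98.9%) matched it; promoters are from RefSeq (GRCm38.p6). Whether counting used strand is not given in the sources used here, so reads of overlapping genes may be shared. Alternatives were the genotypes compared alone, a replicate block, each library left out, other filters, DESeq2 1.42.0, limma-trend 3.58.1 on log2(CPM + 1), other scaling factors, and the other control genotype. Leaving out Gfi1-KO replicate 2 with GFI1-KI replicate 2, transcript sums, and the class medians without each library, were added after seeing the data.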

Additional observations from a re-analysis of the deposited data

How the results depend on the processing

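EdgeR called 0 members in each of the 5 comparisons under every alternative run with it, and limma-trend called 0. DESeq2 called 2 members in GFI1-KD minus GFI1-KI (Cdca8 and Ube2c), 1 in GFI1-36N minus GFI1-KI (Cdca8) and 0 in the other 3 comparisons, beside 181, 364, 194, 146 and 199 genes in all for GFI1-KD, GFI1-36N, Gfi1-KO, GFI1-KI and the difference of effects; the cause was not tested. The members' median kept its sign under every alternative run. Leaving out each library gave -0.68 to -0.45 for GFI1-KD minus GFI1-KI, 0.28 to 0.54 for Gfi1-KO minus Gfi1-WT, -1.01 to -0.68 for GFI1-36N minus GFI1-KI, 0.31 to 0.44 for GFI1-KI minus Gfi1-WT and -1.14 to -0.74 for the difference of effects. With the other control genotype the medians moved to -0.12 for GFI1-KD and 0.027 for Gfi1-KO, which is beyond the spread between libraries (0.31 for each), and to -0.39 for GFI1-36N.

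Same-numbered libraries did not deviate together (1 of 30 pairs above 0.1, from -0.11 to 0.10), so the numbers do not pair them. With the replicate block, edgeR called 0 members and the medians were -0.57, 0.41, -0.85, 0.35 and -0.85 in the order above. Limma-trend gave -1.24 for GFI1-36N. Without GFI1-36N replicate 3 and GFI1-KD replicate 1 together, the medians were -0.65, 0.41, -0.68, 0.38 and -0.95. Chosen after seeing the data, leaving out Gfi1-KO replicate 2 and GFI1-KI replicate 2 together gave -0.47, 0.55, -0.74, 0.34 and -0.92, and transcript sums gave -0.69, 0.43, -0.85, 0.43 and -0.96. The SE of single members (median 0.90 in GFI1-KD minus GFI1-KI, log2) limits what could be called.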
